A study of Mus musculus with 3 samples.

Results

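The renin-angiotensin genes Ren1, Agt, Ace, Agtr1a, Enpep, Mme and Atp6ap2, 7 of the 22535 genes in the deposited tables, were followed through single cells of the mouse kidney cortex. They were chosen by name as the precursor, enzymes and receptors of the system, and their unique molecular identifiers (UMIs, each standing for 1 captured transcript) were counted in every barcode with at least 200 genes and at most 50% mitochondrial UMIs. Cells were sorted into classes by marker genes, and none of the 7 genes took part in that sorting.

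In this system renin, released by granular cells of the afferent arteriole, cuts angiotensinogen to angiotensin I, and angiotensin-converting enzyme turns angiotensin I into angiotensin II. Angiotensin II acts through its receptor on vascular and tubular cells, constricts arterioles and drives salt retention. Aminopeptidase A and neprilysin, peptidases on the surface of kidney epithelium, trim or degrade the angiotensins, and the (pro)renin receptor is also an accessory protein of the vacuolar proton pump.

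All 3 libraries came from WT1CreERT2; Rosa26-tdTfl/+ mice, in which a tamoxifen-activated Cre at the Wt1 locus marks podocytes and WT1+ parietal epithelial cells (PECs) with the red protein tdT. Sham held renal cells after sham surgery, enriched for tdT+ cells. IRI24h-TDN held a mixture of tdT+ and tdT- cells taken 24 h after both kidneys underwent severe ischemia-reperfusion injury (IRI). IRI24h-TD held sorted tdT+ cells after the same injury. Several kidneys entered each group but only 1 library was made per condition, so no difference below has a replicate check and no p-value is given.

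Of 10062, 10062 and 9884 barcodes in Sham, IRI24h-TDN and IRI24h-TD, 8047, 9024 and 9689 passed the filter, with a median of 7746, 9151 and 9529 UMIs. From 82 to 96 of the passing barcodes were shared between any 2 libraries. Podocyte-like cells were the most frequent class, with 4382, 5196 and 8896 cells. PEC-like cells numbered 1083, 398 and 562, and proximal tubular epithelial cell (PTEC)-like cells 1031, 152 and 89. Mural-like cells, which carry markers of mesangial cells, pericytes and smooth muscle, numbered 290, 460 and 15, and monocytic-like cells 334, 973 and 18. Every class had at least 5 of its listed markers in at least 25% of its cells. The sort sets how many cells of each class a library holds, so the levels below are counts per 1000000 UMIs of the class (CPM).

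The promoters are shown because the cell types of the 7 genes differed so widely, from a gene held by a few mural-like cells to a gene found in all classes. The sequences are RefSeq entries of the build GRCm38.p6, 100 bases up to the base before the annotated start, 5′ to 3′ on the gene's strand. Capitals mark the letters TATAA in the first 3 and TGACG in the last.
Ren1, chr1:133350574-133350673, + strand: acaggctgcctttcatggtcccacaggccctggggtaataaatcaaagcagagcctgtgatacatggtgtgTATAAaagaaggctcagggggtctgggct
Agt, chr8:124569707-124569806, - strand: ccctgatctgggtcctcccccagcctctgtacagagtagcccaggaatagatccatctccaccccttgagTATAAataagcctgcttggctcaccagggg
Ace, first annotated start, chr11:105967848-105967947, + strand: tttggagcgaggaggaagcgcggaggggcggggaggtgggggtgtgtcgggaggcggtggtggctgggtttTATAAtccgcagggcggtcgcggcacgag
Atp6ap2, chrX:12587659-12587758, + strand: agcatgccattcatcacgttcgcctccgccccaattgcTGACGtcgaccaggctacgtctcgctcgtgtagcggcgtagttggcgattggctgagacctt

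TATAA began at -29, -30 and -29 from the start of Ren1, Agt and Ace, counting the base before the start as -1. Over 32851 mouse promoters, 4.93% held TATAA on the gene's strand in the last 50 bases, and 22.8% held it on either strand in 250 bases. TGACG began at -62 in Atp6ap2 and was on either strand of 17.8% of promoters in 250 bases. The 250 bases before the start held 1 CpG for Ren1 and 0 for Agt, against 19 for Ace and 20 for Atp6ap2. The Enpep promoter held TATAA on the opposite strand alone, and the 3 annotated Mme starts held neither motif. A match of letters is a description of the window and not a bound site. Entries for 6 of the 7 genes were matched, and Agtr1a is named only.

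The genes lie on 6 chromosomes of mm10. Ren1 (ENSMUSG00000070645.5) spans chr1:133350510-133360325, Agt (ENSMUSG00000031980.9) chr8:124556534-124569706 and Ace (ENSMUSG00000020681.14) chr11:105967945-105989964. Agtr1a (ENSMUSG00000049115.15) spans chr13:30336441-30382867, Enpep (ENSMUSG00000028024.14) chr3:129269175-129332720, Mme (ENSMUSG00000027820.12) chr3:63241537-63386030 and Atp6ap2 (ENSMUSG00000031007.2) chrX:12587801-12617049. Enpep gave 611669 UMIs in all, Mme 191268, Atp6ap2 49162, Ren1 18667, Ace 1539, Agtr1a 1381 and Agt 1351. Reads were counted per gene, so these totals do not rank the genes per length of transcript.

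**Figure D1:**
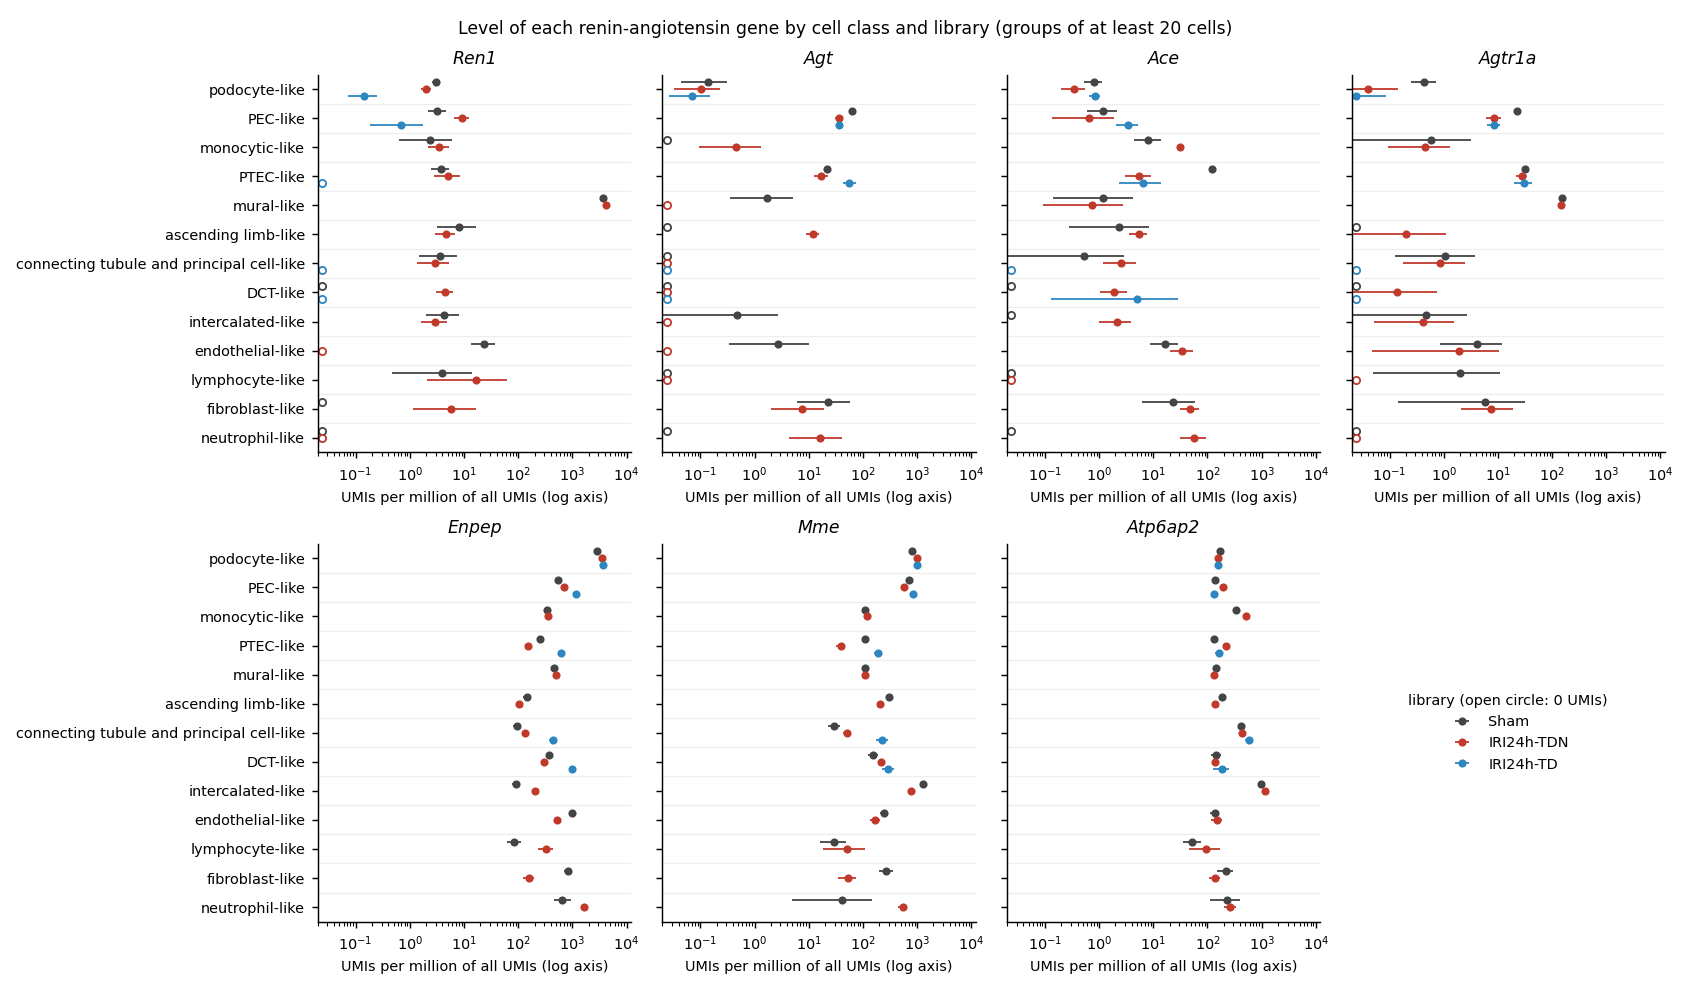
Level of each gene (x axis, CPM, log axis) in each cell class (y axis) and library, for groups of at least 20 cells; bars are exact 95% Poisson intervals and open circles mark groups with 0 UMIs. Ren1 stands at 3728 and 4185 CPM in mural-like cells of Sham and IRI24h-TDN and below 25 CPM in every other group shown, while Atp6ap2 is above 50 CPM in every group shown.

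Agt encodes angiotensinogen, the substrate of renin. In Sham, 74.6% of its UMIs were in PEC-like cells and 23.5% in PTEC-like cells. PEC-like cells held 583 Agt UMIs in Sham, and 165 and 219 in IRI24h-TDN and IRI24h-TD. These were 62.2 (95% interval, 57.3 to 67.5), 35.9 (30.6 to 41.8) and 36.8 (32.1 to 42.0) CPM. The Sham level was the highest and the levels of both IRI libraries overlapped. The log2 ratio of IRI24h-TDN over Sham was -0.79 (-1.05 to -0.54), a level 1.73-fold lower. Intervals here and below cover counting error only, and in a sum over a class fewer expressing cells and less RNA per cell cannot be told apart.

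Within PEC-like cells most Agt was in 1 cluster, led by Gc, Sox9 and C3. There it reached 121 CPM (111 to 131) in 463 Sham cells, 53.3 (45.2 to 62.3) in 215 IRI24h-TDN cells and 70.9 (61.5 to 81.2) in 233 IRI24h-TD cells. Both IRI levels lay below the Sham interval, and the IRI24h-TDN level was 2.27-fold lower than that of Sham (log2 ratio -1.18, -1.45 to -0.92). The share of its cells with an Agt UMI was 43.0% in Sham, and 30.7% and 35.2% in the IRI24h-TDN and IRI24h-TD libraries. The cluster led by Dkk3 held 0.331, 1.65 and 2.04 CPM in the same order. Its cells also carried the podocyte gene Nphs1, at 1563, 1370 and 1579 CPM, and may mix PEC-like and podocyte-like cells. At clustering resolution 2 a cluster of 376 cells led by Dkk3 was named podocyte-like. The cluster led by Tnc and Cp had Agt at 11.3, 15.4 and 14.8 CPM. The last cluster did not differ beyond its intervals.

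Agt in PEC-like cells was uneven from cell to cell. If its UMIs had been spread in proportion to depth, 38.1% of the Sham cells would have held one, and 19.9% did. The spread index, the variance over cells divided by that of an even Poisson spread of the same UMIs, was 2.97 in Sham, and 2.47 and 2.77 in IRI24h-TDN and IRI24h-TD. The index alone does not tell RNA made by a cell from RNA picked up by it. In podocyte-like cells, genes of the tubule gave indices from 1.11 (Umod in IRI24h-TDN) to 5.19 (Kap in IRI24h-TD). Miox in IRI24h-TD gave 5.40, but from only 6 UMIs with at most 1 in a cell. In podocyte-like cells Agt was at 0.136, 0.101 and 0.0707 CPM, from 5, 5 and 6 UMIs. It had 0 UMIs in 604 connecting tubule and principal cell-like cells, which allows a share of cells with a UMI of up to 0.497%, and 0 in 568 distal convoluted tubule-like cells, which allows up to 0.528%.

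In PTEC-like cells Agt stood at 21.8 CPM (18.8 to 25.2) in Sham, 16.9 (12.4 to 22.5) in IRI24h-TDN and 56.4 (42.2 to 73.8) in IRI24h-TD. Sham and IRI24h-TDN overlapped, and the 89 cells of IRI24h-TD were above both. In ascending limb-like cells Agt had 0 UMIs in 123 Sham cells, which allows a share of up to 2.44%, and 60 UMIs in 36 of 473 IRI24h-TDN cells. The IRI24h-TDN level there was 11.9 CPM (9.07 to 15.3), at least 3.45-fold higher than a floor of 3 counts in the Sham cells, with a spread index of 2.35. Median depth was 5762 UMIs in those Sham cells and 10213 in those of IRI24h-TDN.

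Ren1 encodes renin, the enzyme that starts the cascade. Mural-like cells were 3.6% of Sham cells, 5.10% of IRI24h-TDN cells and 0.155% of IRI24h-TD cells and held 96.7%, 97.7% and 97.4% of the Ren1 UMIs of those libraries. Their level was 3728 CPM (3638 to 3820) in Sham, 4185 (4108 to 4264) in IRI24h-TDN and 5813 (5359 to 6296) in the 15 cells of IRI24h-TD. The log2 ratio of IRI24h-TDN over Sham was 0.17 (0.12 to 0.21), or 1.12-fold. This small difference rested on few cells: without the highest cell of each library the log2 ratio was 0.31, without likely doublets 0.01, and with cells of at most 20% mitochondrial UMIs -0.08. A higher or a lower Ren1 level after IRI therefore cannot be read from these libraries.

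Ren1 was the most unevenly spread of the 7 genes. Of the mural-like cells 80 of 290 (27.6%) in Sham, 119 of 460 (25.9%) in IRI24h-TDN and 6 of 15 in IRI24h-TD held a Ren1 UMI, where an even spread would have reached 100% to the nearest whole number. The spread index was 605, 500 and 490. Cells with at least 10 Ren1 UMIs numbered 35 in Sham (12.1% of mural-like cells, 8.55 to 16.4), 58 in IRI24h-TDN (12.6%, 9.72 to 15.99) and 5 in IRI24h-TD. These cells made up close to the same share of the class in Sham and IRI24h-TDN, and the intervals overlapped. They held 94.1%, 95.9% and 97.3% of all Ren1 of their libraries, with a median of 44, 68 and 39 UMIs and up to 1272, 1283 and 410 in 1 cell.

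**Figure D2:**
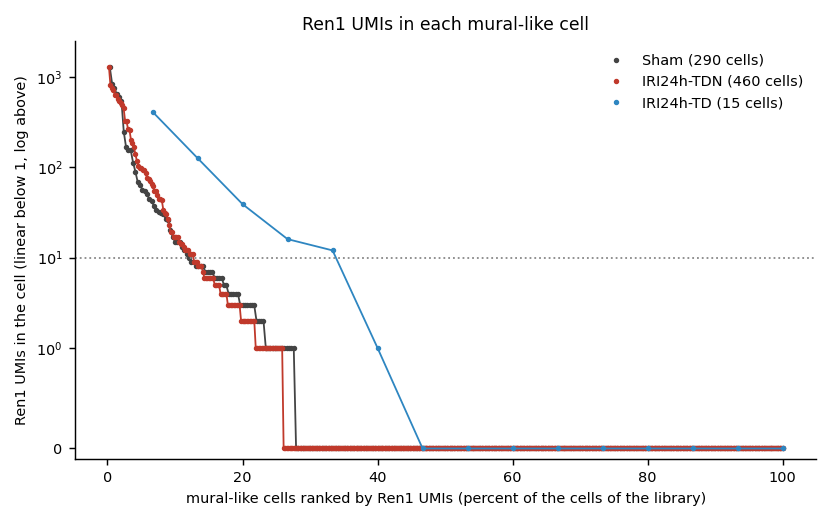
Ren1 UMIs in each mural-like cell (y axis, linear below 1 and log above), with cells ranked by Ren1 from high to low (x axis, percent of the mural-like cells of the library); each point is a cell, lines join the cells of a library and the dotted line marks 10 UMIs. The curves of Sham and IRI24h-TDN fall from over 1200 UMIs to 0 within the first 30% of cells, and the 15 cells of IRI24h-TD include 5 above the line.

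Clustered again, the mural-like cells fell into 7 subclusters, and 64 of the 98 cells with at least 10 Ren1 UMIs were among the 261 cells of a subcluster with Cnn1 and Eln among its leading genes. Ren1 there was at 11425 CPM in Sham and 9458 CPM in IRI24h-TDN. In the subcluster led by Fabp4 and Casq2 it was at 248 CPM in 55 Sham cells and 1095 CPM in 139 IRI24h-TDN cells. The order of the libraries thus differed between these subclusters. In a subcluster led by Cp and Iigp1, whose cells carried PEC markers beside mural ones (10 of 12 listed PEC markers and 9 of 9 mural markers in at least 25% of them), 1283 of the 1516 Ren1 UMIs of IRI24h-TDN were in 1 of its 15 cells.

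Set against the 560 mural-like cells without Ren1, the 98 cells are described by other genes, with no test since they were chosen by their Ren1. Of the 4 listed genes known from renin cells and their neighbours, Akr1b7 and Gja5 were at higher and Gja4 and Rgs5 at lower levels in the 98 cells. Akr1b7, an aldo-keto reductase found in juxtaglomerular cells, was at 1007 CPM against 107 CPM, with a UMI in 79.6% of the cells, and 96.2% of all Akr1b7 UMIs were in mural-like cells. Gja5, which encodes a gap junction protein of those cells, was at 151 against 20.6 CPM, while Gja4, a gap junction gene as well, was at 93.7 against 142 CPM and Rgs5, a regulator of G protein signalling, at 9259 against 11054 CPM. Among other genes, Adora1, the adenosine receptor that restrains renin release, was at 115 against 11.9 CPM, Acta2 and Myh11, genes of the contractile apparatus, at 7478 against 10624 and 2783 against 3943 CPM, and Kap, a gene of the proximal tubule, at 82.2 against 189 CPM. Of the 98 cells 6 had a doublet score among the top 6% of their library.

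In podocyte-like cells Ren1 was low and nearly evenly spread. They held 3.04, 1.98 and 0.141 CPM in Sham, IRI24h-TDN and IRI24h-TD, and 2.42%, 1.75% and 0.135% of them had a UMI where an even spread gives 2.52%, 1.87% and 0.135%. The spread index was 1.16, 1.10 and 0.967. For comparison Umod, a gene of the ascending limb that podocytes lack, gave indices of 1.14, 1.11 and 1.21 in the same cells, at 2.64, 3.004 and 0.236 CPM. Ren1 was thus close to Umod in level and evenness in Sham and IRI24h-TDN, and both genes were lowest in the library of sorted tdT+ cells. Proximal tubule genes in the same cells were not all so even: Slc34a1 gave indices of 2.19, 1.24 and 1.27, Miox 1.36, 1.32 and 5.40, and Kap 4.63, 4.29 and 5.19, at 225, 3.61 and 1.56 CPM of Kap. The 5.40 of Miox is no sign of unevenness, as it came from 6 UMIs with at most 1 in a cell. They were in 0.06745% of cells, where an even spread gives 0.06742%. Outside the mural class 2 cells held 10 or more Ren1 UMIs, both in IRI24h-TDN: a PEC-like cell with 35 and a distal convoluted tubule-like cell with 16. In endothelial-like cells of Sham 17 UMIs were found in 5 cells.

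Ace encodes angiotensin-converting enzyme, which is carried by the brush border of the proximal tubule, by endothelium and by some monocytes. In PTEC-like cells Ace was at 119 CPM (111 to 126) in Sham, 5.40 (3.02 to 8.91) in IRI24h-TDN and 6.38 (2.34 to 13.9) in IRI24h-TD, from 1001, 15 and 6 UMIs. The Sham level was far above both IRI libraries, which overlapped. IRI24h-TDN was 22.0-fold lower than Sham (log2 ratio -4.46, -5.30 to -3.73), and 0.658% of the 6383 genes compared in this class had a lower ratio. An Ace UMI was found in 385 Sham cells (37.3%), 10 IRI24h-TDN cells (6.58%) and 4 IRI24h-TD cells (4.49%). With every cell thinned to 2400 UMIs these shares were 19.5%, 2.0% and 0%, and the log2 ratio was -3.67.

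Ace was lower in IRI24h-TDN in each of the 5 PTEC-like subclusters with at least 9 cells in both libraries, and in 1 of them the intervals overlapped. In a subcluster led by Krt20, Hspb1 and Krt18, Ace was at 148 CPM in 208 Sham cells and 0.976 CPM in 47 IRI24h-TDN cells. In the subcluster led by Trib3 and Cyp2a5 it was at 174 and 4.59 CPM, in the subcluster led by Odc1 and Acsm3 at 95.1 and 21.4 CPM and in a subcluster led by mitochondrial and immunoglobulin genes at 129 and 12.1 CPM. In the order given, the IRI24h-TDN levels of these subclusters rested on 1, 1, 4 and 2 UMIs. The subcluster led by Spp2 and Slc5a12, a lactate transporter of the early proximal tubule, had 11.5 CPM (5.49 to 21.1) in Sham and 5.03 (1.63 to 11.7) in IRI24h-TDN. The highest Sham level was 215 CPM, in 46 cells led by Slc22a19 and Slc22a7, transporters of the late proximal tubule.

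Proximal tubule markers moved with Ace. The summed level of 10 PTEC markers was 18901 CPM in Sham, and 5305 and 4876 CPM in IRI24h-TDN and IRI24h-TD, with Ttc36 at 0 in both IRI libraries. The summed level of 6 late-segment (S3) markers was 2281, 116 and 89.4 CPM, with Cyp7b1 and Slc22a13 at 0 in both IRI libraries, and that of 5 early-segment (S1/S2) markers 2408, 666 and 634 CPM. A list of 6 injured tubule genes went from 78.6 to 3632 and 2266 CPM. The PTEC-like cells captured after IRI thus differed from those of Sham in segment and injury markers, and the part of this in the Ace difference was not tested.

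In monocytic-like cells Ace was at 8.11 CPM (4.43 to 13.6) in Sham and 31.2 (27.1 to 35.7) in IRI24h-TDN. These were 14 UMIs in 5 cells and 206 UMIs in 48 cells, a log2 ratio of 1.94 (1.16 to 2.84). Nearly all of it was in a cluster led by Chil3, Lyz2 and Ccr2, with 37 Sham cells and 215 IRI24h-TDN cells, at 62.7 (34.3 to 105) and 129 (112 to 148) CPM and a log2 ratio of 1.04 (0.26 to 1.94). The cluster led by C1q genes had 0 Ace UMIs in 255 Sham cells and 1 in 712 IRI24h-TDN cells, and the third cluster, led by H2-Ab1 and H2-Aa, had 0. More of the monocytic-like cells of IRI24h-TDN belonged to the Chil3 cluster, and the class ratio of 3.84-fold was larger than the 2.06-fold within it.

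The podocyte gene Nphs1 moved with this difference. Nphs1, a slit diaphragm gene, was at 2191 CPM in the 37 Sham cells of the Chil3 cluster and 441 CPM in its IRI24h-TDN cells. Podocyte RNA enters the total that Ace is divided by. Another podocyte marker, Cdkn1c, went the other way over the monocytic-like class, at 1060 CPM in Sham and 1281 CPM in IRI24h-TDN. Nphs1 was at 453 and 228 CPM in that class. It was also lower in podocyte-like cells of IRI24h-TDN than of Sham, as given below. In the cells of the cluster with no Nphs1 UMI, Ace was at 223 CPM (122 to 375) in 17 Sham cells and 145 (123 to 171) in 157 IRI24h-TDN cells. The log2 ratio there was -0.62 (-1.41 to 0.29), within counting error and opposite in sign to that of the whole cluster. In the class the cells with no Nphs1 UMI had 12.8 CPM (7.004 to 21.5) in Sham and 30.7 (25.9 to 36) in IRI24h-TDN, a log2 ratio of 1.26 (0.47 to 2.17). A higher Ace level within the Chil3 cells of IRI24h-TDN therefore cannot be read from these libraries.

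**Figure D3:**
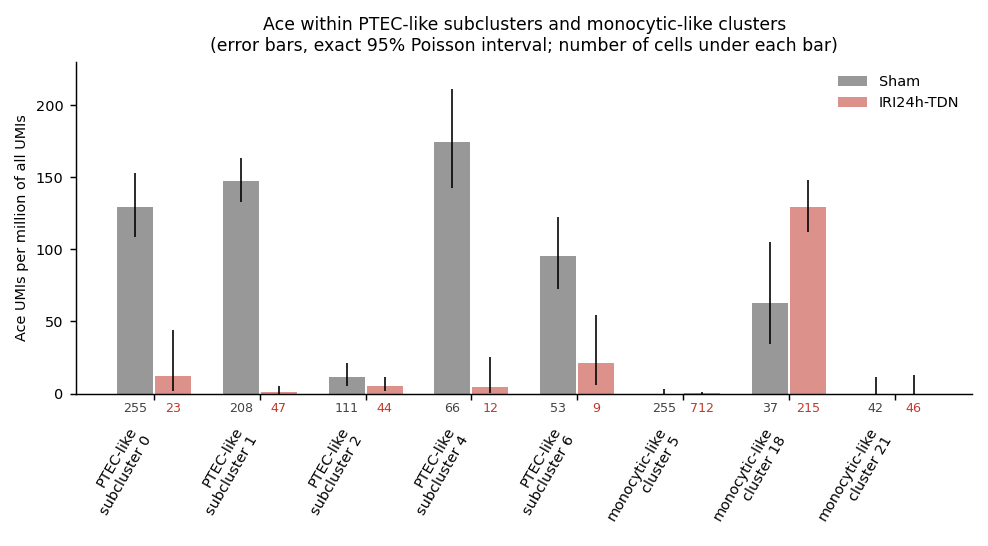
Ace level (y axis, CPM) in Sham and IRI24h-TDN for the 5 PTEC-like subclusters with at least 9 cells in both libraries and for the 3 monocytic-like clusters (x axis); bars give the level of 1 library, error bars exact 95% Poisson intervals and the numbers below the cells. Ace is lower in IRI24h-TDN in all 5 PTEC-like subclusters (148 against 0.976 CPM in subcluster 1, the latter from 1 UMI). It is higher in IRI24h-TDN over all cells of monocytic-like cluster 18, the Chil3 cluster (129 against 62.7 CPM), but not in its cells with no Nphs1 UMI (145 against 223 CPM, not drawn).

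Within the Chil3 cluster of IRI24h-TDN, 31 cells with at least 2 Ace UMIs were compared with 168 cells without any, again as a description, with genes picked after their values were seen. Genes with 3 or fewer UMIs in the cells without Ace were left out of the ranking, so genes nearly absent there are not shown. Genes low or rarely found in the cells with Ace were left out too. Of the remaining genes, the 12 with the largest fold in the cells with Ace included Ear2, Adgre4, Spn and Treml4. In that order they were at 610 against 11.6, 700.4 against 20.01, 471 against 17.7 and 342 against 15.4 CPM. The same 12 held the endothelial marker Flt1, at 123 against 3.08 CPM, the ion transport genes Slc12a2 and Scnn1a, at 572 against 21.6 and 241 against 11.6 CPM, and the enolase gene Eno3, at 203 against 3.85 CPM. Lower in them were Ccl2, a chemokine, at 85.6 against 1202 CPM and Msr1, a scavenger receptor, at 160.4 against 2479 CPM.

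Endothelial-like cells, a known site of Ace, held 16.5 CPM (8.52 to 28.8) in Sham and 34.2 (20.3 to 54.1) in IRI24h-TDN, from 12 and 18 UMIs. The log2 ratio of 1.05 had an interval from -0.08 to 2.24 and was within counting error. In fibroblast-like cells 4 UMIs in Sham and 25 in IRI24h-TDN gave 22.7 and 47.1 CPM with overlapping intervals, and in neutrophil-like cells 13 of the 14 UMIs of IRI24h-TDN were in 1 cell. Podocyte-like cells had 0.788, 0.343 and 0.837 CPM in the 3 libraries.

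Agtr1a encodes the main angiotensin II receptor of rodents. Mural-like cells carried it at 152 CPM (134 to 171) in Sham, 144 (130 to 159) in IRI24h-TDN and 183 (110 to 286) in IRI24h-TD. The 3 intervals overlapped, and the log2 ratio of IRI24h-TDN over Sham was -0.07 (-0.30 to 0.16). An Agtr1a UMI was found in 30.3%, 32.2% and 46.7% of the cells, with a spread index of 4.11, 3.45 and 3.25.

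Agtr1a and Ren1 peaked in different mural-like subclusters. Over all libraries the Fabp4 and Casq2 subcluster had Agtr1a at 363 CPM with a UMI in 64.3% of its cells, and the Cp and Iigp1 subcluster, whose cells also carry PEC markers, had 435 CPM and 84.1%. The subcluster that held most of the Ren1 had 62.6 CPM and 17.6%, and a subcluster led by Il6 and Bhlhe41 had 9.19 CPM and 4.22%. The class ratio of -0.07 was 0.37 with every cell thinned to 2400 UMIs, and it covered opposite values: Agtr1a was at 89.0 CPM in Sham and 44.3 in IRI24h-TDN in the Ren1-rich subcluster (log2 ratio -1.01, -1.69 to -0.33), and at 289 and 385 CPM in the Fabp4 subcluster (0.41, 0.05 to 0.79). Cell by cell, the 98 cells with at least 10 Ren1 UMIs still had Agtr1a at 220 CPM against 139 CPM in mural-like cells without Ren1.

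PTEC-like cells had Agtr1a at 32.1 CPM (28.4 to 36.2) in Sham, 27.4 (21.6 to 34.3) in IRI24h-TDN and 29.8 in IRI24h-TD, with overlapping intervals in Sham and IRI24h-TDN. Here Agtr1a parted from Ace, with a log2 ratio of -0.23 (-0.62 to 0.14) in the cells where that of Ace was -4.46. PEC-like cells had 22.3 CPM (19.4 to 25.6) in Sham, 8.49 (6.04 to 11.6) in IRI24h-TDN and 8.41 (6.24 to 11.1) in IRI24h-TD, so both IRI libraries were below Sham. IRI24h-TDN was 2.63-fold lower (log2 ratio -1.39, -1.93 to -0.90). In the Dkk3 cluster, which also carried Nphs1, the levels were 35.7, 4.13 and 5.31 CPM. The IRI24h-TDN level there was 8.65-fold lower than that of Sham, from 5 and 108 UMIs. In the Gc and Sox9 cluster they were 19.7, 11.6 and 12.4 CPM. Podocyte-like cells had 0.435, 0.0403 and 0.0236 CPM.

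Enpep encodes aminopeptidase A, which removes the first residue of angiotensin II. Podocyte-like cells carried it at 2793 CPM (2776 to 2811) in Sham, 3456 (3439 to 3472) in IRI24h-TDN and 3614 (3602 to 3627) in IRI24h-TD, with a UMI in 99.6%, 100% and 99.5% of the cells. Both IRI libraries were above Sham. IRI24h-TDN was 1.24-fold higher (log2 ratio 0.31, 0.30 to 0.32), and the ratio was between 0.27 and 0.35 in each of the 6 podocyte-like clusters with over 100 cells in both libraries. Spread was low, with indices of 1.90, 2.21 and 2.19.

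Mme encodes neprilysin, a peptidase that degrades angiotensins and other small peptides. In podocyte-like cells it was at 794 CPM (785 to 803) in Sham, 984 (975 to 993) in IRI24h-TDN and 1013 (1006 to 1020) in IRI24h-TD. The order of the libraries was that of Enpep, and the log2 ratio of IRI24h-TDN over Sham was 0.31 (0.29 to 0.33), or 1.24-fold. With trimmed-mean scaling in place of total UMIs, the ratios of Enpep and Mme were 0.41 and 0.42.

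These podocyte ratios are small beside how far the libraries stand apart. Without correction between libraries, podocyte-like cells split by library: 1 cluster held 2767 Sham cells of 2773, led by ribosomal protein genes. Of 6224 genes compared in podocyte-like cells, 5.27% passed 2-fold between IRI24h-TDN and Sham, and 0 of the 3 members compared (Enpep, Mme and Atp6ap2) did. Between IRI24h-TD and IRI24h-TDN 0.0162% passed 2-fold. Surgery and library preparation cannot be told apart as sources of the Sham difference.

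Outside podocyte-like cells, Enpep largely followed the podocyte gene Nphs1. The ratio of Enpep UMIs to those of Nphs1 was 0.766 in podocyte-like cells of Sham and 1.54 in those of IRI24h-TDN. In monocytic-like cells, which should lack Enpep, it was 0.748 and 1.55, and in ascending limb-like cells 0.641 and 1.47, so the ratio of each library was close to that of its podocyte-like cells. In intercalated-like cells it was 0.664 and 1.615, and in endothelial-like cells 1.06 in Sham and 1.495 in IRI24h-TDN. The endothelial-like cells of Sham were thus above the ratio of podocyte-like cells. Those with no Nphs1 UMI held 186 CPM of Enpep in Sham and 54.5 CPM in IRI24h-TDN. In monocytic-like cells with no Nphs1 UMI, Enpep was at 43.0 CPM in Sham and 23.1 CPM in IRI24h-TDN against 339 and 354 CPM in the whole class. Nphs1 itself was lower in podocyte-like cells of IRI24h-TDN, at 2234 CPM in their largest cluster against 3781 CPM in Sham. The lack of an Nphs1 UMI is thus a looser limit on podocyte RNA in IRI24h-TDN than in Sham, here and for Ace and Mme.

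PTEC-like and mural-like cells held Enpep beyond that ratio, at 1.35 and 1.39 Enpep UMIs for each Nphs1 UMI in Sham and 2.22 and 2.25 in IRI24h-TDN. In PTEC-like cells without Nphs1 UMIs Enpep was at 158 CPM in Sham, and 88.0 and 148 CPM in IRI24h-TDN and IRI24h-TD. Mural-like cells without them had 257 CPM in Sham and 179 CPM in IRI24h-TDN. In PEC-like cells the ratio, 0.864, 1.58 and 1.54 in Sham, IRI24h-TDN and IRI24h-TD, was near that of podocyte-like cells, yet cells without Nphs1 UMIs held 314, 269 and 507 CPM of Enpep. A cell can hold podocyte RNA and no Nphs1 UMI, so these levels may still include some of it.

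Mme had sites of its own. PEC-like cells carried 725 CPM in Sham, and 564 and 827 CPM in IRI24h-TDN and IRI24h-TD. Those without Nphs1 UMIs held 603 CPM in Sham, and 347.5 and 561 CPM in IRI24h-TDN and IRI24h-TD, so IRI24h-TD was not above Sham there. The Dkk3 cluster was the highest of the PEC-like clusters, at 1120, 1236 and 1353 CPM. Its cells without Nphs1 UMIs held 1086, 840 and 1001 CPM. The Gc and Sox9 cluster had 541, 281 and 437 CPM with a log2 ratio of IRI24h-TDN over Sham of -0.94. Agt and Mme were thus both lower in IRI24h-TDN in that cluster. In PTEC-like cells Mme was at 109 CPM (102 to 116) in Sham, 39.6 (32.6 to 47.7) in IRI24h-TDN and 189 (163 to 219) in IRI24h-TD, and IRI24h-TDN was 2.74-fold lower than Sham (log2 ratio -1.45, -1.75 to -1.17). In PTEC-like cells without Nphs1 UMIs it was at 84.2, 23.9 and 91.4 CPM, so the order of Sham and IRI24h-TDN was kept.

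**Figure D4:**
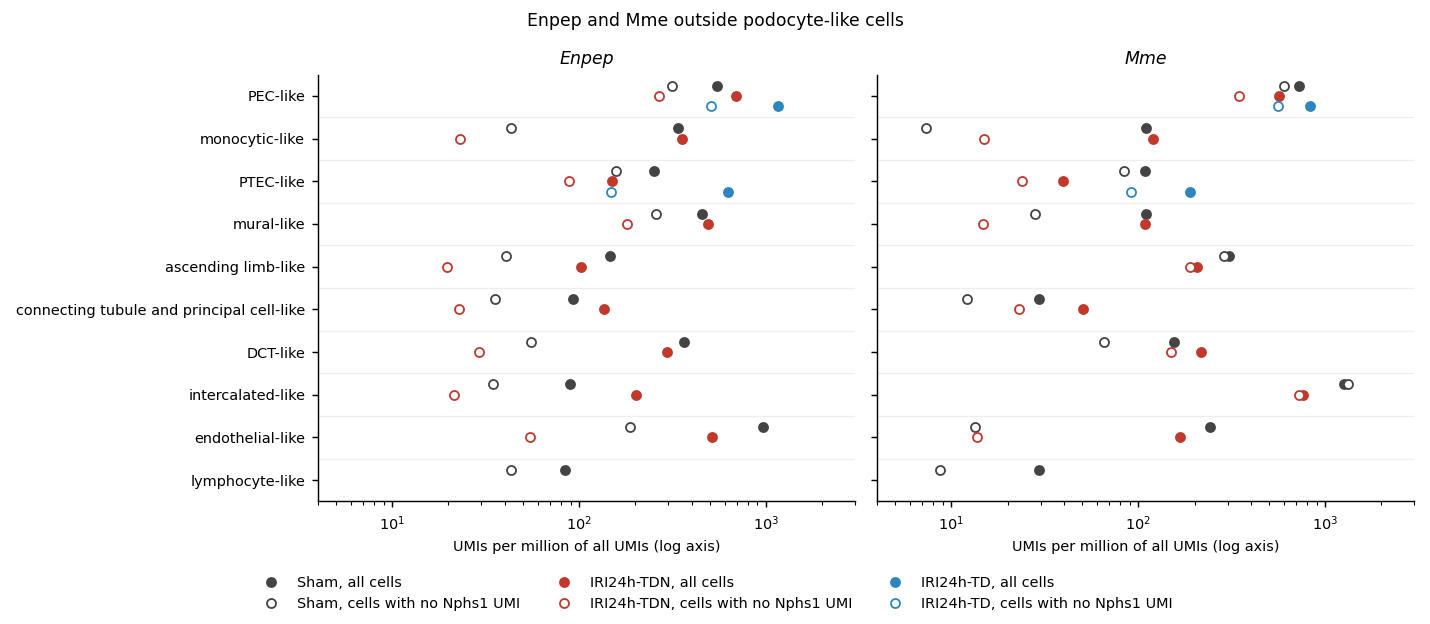
Level of Enpep and Mme (x axis, CPM, log axis) in classes other than podocyte-like cells (y axis), for all cells of a library (filled) and for cells with no Nphs1 UMI (open). Enpep of IRI24h-TDN is at 354 and 23.1 CPM in monocytic-like cells and at 689 and 269 CPM in PEC-like cells, while Mme of ascending limb-like cells is at 206 and 188 CPM.

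The highest Mme level of any class in Sham was in intercalated-like cells, the acid-base cells of the collecting duct, at 1267 CPM (1219 to 1317), against 760 (735 to 785) in IRI24h-TDN. It depended on the cluster. In the cluster led by Aqp6, Slc4a1 and Kit, which are genes of acid-secreting intercalated cells, Mme was at 1922 CPM (1848 to 1998) in 121 Sham cells and 1877 (1808 to 1949) in 130 IRI24h-TDN cells, with a UMI in 98.4% and 96.9% of them. The levels did not differ beyond their intervals, with a log2 ratio of -0.03 (-0.11 to 0.04). In the cluster led by Slc26a4, the anion exchanger of base-secreting cells, and Insrr it was at 114 CPM (91.1 to 141) in 59 Sham cells and 269 (252 to 288) in 215 IRI24h-TDN cells, a log2 ratio of 1.24 (0.92 to 1.58). The class level was thus lower in IRI24h-TDN while neither cluster was lower beyond its intervals, with more cells of the Slc26a4 cluster in that library.

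**Figure D5:**
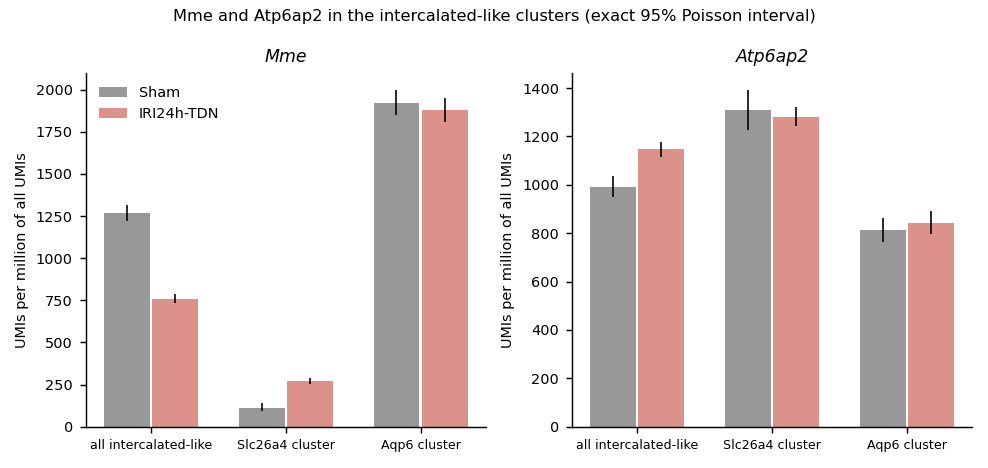
Mme (left) and Atp6ap2 (right) level (y axis, CPM) in all intercalated-like cells and in their Slc26a4 and Aqp6 clusters (x axis) of Sham and IRI24h-TDN; error bars are exact 95% Poisson intervals. Mme stands at 1922 and 1877 CPM in the Aqp6 cluster of both libraries and at 114 and 269 CPM in the Slc26a4 cluster, while Atp6ap2 is the higher in the Slc26a4 cluster (1307 and 1281 CPM).

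Ascending limb-like cells had Mme at 307 CPM (271 to 346) in Sham and 206 (194 to 219) in IRI24h-TDN, and cells without Nphs1 UMIs kept 286 and 188 CPM. Monocytic-like cells showed the other case: 109 and 120 CPM in the class, 7.32 and 15.02 CPM in cells without those UMIs.

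Atp6ap2 encodes the (pro)renin receptor, part of the vacuolar proton pump. Intercalated-like cells, which are rich in that pump, had its highest class levels, 992 CPM (949 to 1035) in Sham and 1147 (1116 to 1177) in IRI24h-TDN. By cluster the libraries did not differ beyond their intervals. The Slc26a4 cluster had 1307 CPM (1227 to 1392) and 1281 (1242 to 1320), and the Aqp6 cluster 812 (765 to 862) and 841 (795 to 890). Connecting tubule and principal cell-like cells followed with 415, 424 and 572 CPM in Sham, IRI24h-TDN and IRI24h-TD.

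Monocytic-like cells had Atp6ap2 at 338 CPM (311 to 367) in Sham and 507 (490 to 525) in IRI24h-TDN, a log2 ratio of 0.58 (0.46 to 0.71). Both large monocytic-like clusters were higher in IRI24h-TDN, the C1q cluster at 396 against 565 CPM and the Chil3 cluster at 215 against 363 CPM, the latter beside the Nphs1 levels given above, whose part was not tested. Podocyte-like cells had 173 CPM (168 to 177), 157 (154 to 161) and 154 (152 to 157), a log2 ratio of IRI24h-TDN over Sham of -0.13 that was -0.03 with trimmed-mean scaling. PTEC-like cells had 131, 216 and 165 CPM. In PEC-like cells Atp6ap2 was at 193 CPM in IRI24h-TDN against 137 in Sham, a log2 ratio of 0.50 (0.37 to 0.62). Of the 888 UMIs of IRI24h-TDN there, 93 were in 1 cell. The Gc and Sox9 cluster had 206 CPM in IRI24h-TDN against 121 in Sham, and the Dkk3 cluster 198 against 163. The Tnc and Cp cluster went the other way within counting error, at 99.2 against 134 CPM.

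Few members passed 2-fold between IRI24h-TDN and Sham, among genes with a mean of at least 20 CPM and at least 20 UMIs. In PTEC-like cells 2 of 5 members were lower by that measure, Ace and Mme, where 10.9% of all genes were, and 0 of 5 were higher, where 15.8% of all genes were. Their median log2 ratio was -0.73 against 0.21 over all genes. In PEC-like, monocytic-like and mural-like cells 0 of 4, 0 of 3 and 0 of 5 members passed, where 8.81%, 13.7% and 5.59% of genes did. In ascending limb-like, connecting tubule and principal cell-like and distal convoluted tubule-like cells 0 of 3 passed each time, against 15.2%, 10.8% and 14.8% of genes. Enpep passed 2-fold in intercalated-like cells (1 of 3 members higher, against 5.62% of genes), where its ratio to Nphs1 was near that of podocyte-like cells. In the intercalated-like cells with no Nphs1 UMI it was at 34.5 CPM in Sham and 21.4 CPM in IRI24h-TDN, so the direction turned. Ace passed it in endothelial-like cells (1 of 4 higher, against 6.17%) within counting error, as its interval includes 0. Other members past 2-fold were below the mean of 20 CPM needed to be counted. Lower in IRI24h-TDN were Agtr1a in PEC-like cells and Ace in podocyte-like cells. Higher were Ace in monocytic-like cells, Agt and Ace in ascending limb-like cells and Ren1 in PEC-like cells. Of that Ren1, 83.3% of the UMIs of IRI24h-TDN were in 1 cell.

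Between IRI24h-TD and IRI24h-TDN 0 of 4 members passed 2-fold in PEC-like cells, where 0.663% of genes did. In PTEC-like cells 3 of 5 members were higher in IRI24h-TD, Agt, Enpep and Mme, against 5.15% of genes. Beside this, the summed level of 10 podocyte markers in those cells was 1347 CPM in IRI24h-TDN and 6291 CPM in IRI24h-TD. Enpep and Mme were high in podocyte-like cells, while Agt was barely found there, as given above. The part of podocyte RNA in the 3 differences was not tested.

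Of 21 further genes of the system 20 had a row and 13 had at least 100 UMIs. In PTEC-like cells 1 of the 10 compared was lower by 2-fold in IRI24h-TDN, Anpep (aminopeptidase N), at 199 CPM in Sham and 28.1 in IRI24h-TDN, and 1 was higher, Prep (prolyl endopeptidase), at 21.9 and 63.7 CPM, beside the 10.9% and 15.8% of all genes given above. In monocytic-like cells 2 of 10 were higher and 1 lower, where 8.55% and 5.2% of all genes were, and in podocyte-like and mural-like cells 0 of 5 and 0 of 6 passed 2-fold, where 5.27% and 5.59% of all genes did. In PEC-like, intercalated-like and endothelial-like cells 1 was higher and 1 lower, of 8, 10 and 8 compared, where 8.81%, 9.31% and 14.1% of all genes passed either way. In ascending limb-like cells 1 of 8 was lower, and in connecting tubule and principal cell-like cells 1 of 9 was higher. In these classes 15.2% and 10.8% of all genes passed either way. In distal convoluted tubule-like cells 2 of 8 were lower (8.07% of all genes), among them Klk1 (kallikrein), at 3535 CPM in Sham and 1417 CPM in IRI24h-TDN. Mas1 and Agtr2, which encode other angiotensin receptors, gave 49 and 2 UMIs in all.

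Across 24 groups of class and library with at least 50 cells, the gene most like each member in its log2(CPM + 10) level was sought among 8030 genes by Pearson's r, as a description of groups that share libraries. For Ren1 these were Gm13861, Cnn1 and Col6a3 (r = 0.993, 0.991 and 0.990), for Agt Gc, Myo7b and Folh1 (0.946, 0.942 and 0.939) and for Agtr1a Rasl12, Stbd1 and Map3k7cl (0.955, 0.928 and 0.928). Enpep was most like Mertk, Nes and Srgap1 (0.988, 0.983 and 0.982). Weaker likeness was found for Mme with Plagl1 (0.883), Atp6ap2 with Muc20 (0.844) and Ace with Agps (0.840).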

How the data were processed

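The authors deposited raw UMI counts of genes by barcodes, 1 table a library, made on the BD Rhapsody platform from 1 suspension each, and the submitters' processing notes name CASAVA 1.8, UMI-tools, Seurat and mm10. The counts are whole numbers with no normalization. The aligner, the use of strand and the filters are not given in the sources used here. Reads of Ren1 and a closely similar gene copy could be split by the counting. The members, marker lists and wider list were chosen with earlier results of these data known.

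Barcodes with at least 200 genes and at most 50% mitochondrial UMIs were kept. Counts were scaled to 10000 per cell. Of these, 2000 variable genes without members, mitochondrial, ribosomal and haemoglobin genes gave 30 components, corrected between libraries by Harmony (theta 2, written in numpy 2.4.6) and clustered on 15 neighbours with leidenalg 0.10.2 and igraph 0.11.9 at resolution 1 (0.5 for subclusters). A cluster took the name of the marker list with the highest mean log2 fold over the other cells, if that was at least 1 and at least 3 markers were in 25% of its cells; podocyte-like clusters needed 8 podocyte markers in 25% of cells and no such list. The 10 leading genes of a cluster held from 0 to 6 markers of its own list (0 in 4 podocyte-like clusters), and the rebuilt names can differ from those of the study. Doublets, the top 6% of a simulated-doublet score in each library, were kept and left out in an alternative. UMIs were summed per class and library and divided by the class total. Levels have exact 95% Poisson intervals, shares Clopper-Pearson intervals and ratios exact binomial intervals. A gene at 0 was set to a floor of 3 counts, summed over the class. Genes were named by rule: all 7 members, the wider list with at least 100 UMIs by count, renin cell genes beside Ren1, and the 3 most alike genes. Genes that set apart cells with Ren1 or Ace, and the subcluster examples, were chosen after their values were seen. Kept UMIs totalled 65065819 (Sham), 88290370 (IRI24h-TDN) and 92889327 (IRI24h-TD). Python 3.11.15, scipy 1.17.1, pandas 2.3.3, scikit-learn 1.9.0 and, for trimmed-mean (TMM) scaling, edgeR 4.0.16 in R 4.3.3 were used, with gene positions from GENCODE M21. Scripts were tested on simulated data. Alternatives covered cell filters, doublets, scaling, free RNA, thinning to 2400 UMIs, clustering resolution and gene filters. Some genes are not reported here, and the choice of Nphs1 alone as the measure of podocyte RNA was made after seeing the data.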

Additional observations from a re-analysis of the deposited data

Results flagged for a closer look

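The log2 ratio of Ace between IRI24h-TDN and Sham was -4.46 in PTEC-like cells and 1.94 in monocytic-like cells. The 2 values have opposite signs, and the difference between them was not tested, since each library is the only one of its condition. The monocytic-like value rests on a cluster of 37 Sham and 215 IRI24h-TDN cells that made up more of the class in IRI24h-TDN, with the podocyte gene Nphs1 at 2191 CPM in those Sham cells and 441 CPM in those of IRI24h-TDN. In cells with no Nphs1 UMI the log2 ratio was 1.26 in the class and -0.62 (-1.41 to 0.29) in that cluster.

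Barcodes with fewer than 200 genes, which entered no comparison, held UMIs of the members above a floor of 3 counts. The 1547 such barcodes of Sham held 10 of Ren1, 5 of Ace, 100 of Enpep, 34 of Mme and 23 of Atp6ap2. The 444 of IRI24h-TDN held 28 of Enpep, 9 of Mme and 12 of Atp6ap2, and the 118 of IRI24h-TD held 20 of Enpep and 6 of Mme. Scaled to their total UMIs this was 33.8, 21.7 and 136 CPM of Enpep in Sham, IRI24h-TDN and IRI24h-TD, and the Ren1 level of these barcodes in Sham, 3.38 CPM, lay near the 3.04 CPM of podocyte-like cells. No single barcode of this kind held more than 3 UMIs of a member.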

How the results depend on the processing

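No paired analysis was possible because each condition has 1 library. Of 87 log2 ratios recomputed under the alternatives, 71 moved by less than their counting interval, 16 moved further, 3 changed sign (Ren1 and Agtr1a in mural-like cells), 0 reversed a call past 2-fold and 1 came to pass 2-fold (Atp6ap2 in podocyte-like cells, from -0.13 to -2.17 with free RNA subtracted). For Ren1 in mural-like cells the ratio of 0.17 became -0.0805 with at most 20% mitochondrial UMIs, 0.0101 without doublets, 0.11 without mitochondrial and ribosomal UMIs in the total, 0.0368 as a mean over cells and -0.0261 after thinning to 2400 UMIs. Among alternatives chosen after seeing the data it was 0.31 without the highest cell and 0.0419 without the podocyte-rich subclusters, and Ace in the Chil3 cluster of monocytic-like cells went from 1.04 to -0.62 in cells with no Nphs1 UMI. Thinning gave -3.67 for Ace in PTEC-like cells, 0.37 for Agtr1a in mural-like cells and 0.32 for Enpep in podocyte-like cells. In podocyte-like cells TMM scaling gave 0.41 for Enpep, 0.42 for Mme and -0.0276 for Atp6ap2, and leaving out mitochondrial and ribosomal UMIs gave 0.28 for both Enpep and Mme. TMM moved every ratio by 0.11 in podocyte-like, -0.18 in PTEC-like, 0.17 in ascending limb-like and 0.14 in distal convoluted tubule-like cells. For that value the class with the lowest Atp6ap2, taken as free RNA, was lymphocyte-like in Sham (52.8 CPM) and mural-like in IRI24h-TDN (131 CPM). Without a filter on low genes, genes past 2-fold numbered 3275 in podocyte-like cells (328 with it), 3260 in PEC-like (651), 4625 in PTEC-like (1707) and 2228 in mural-like cells (365). Ace in PTEC-like cells of IRI24h-TDN rests on 15 UMIs and Agtr1a in the Dkk3 cluster on 5.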
